A study of Mus musculus with 6 samples.

Results

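Regulatory T cells (Tregs) are CD4 T cells that restrain other immune cells, and 10 genes that mark or equip them were followed in activated CD4 T cells with and without deleted Prmt5 alleles. They are Foxp3, Ikzf2, Ikzf4, Lrrc32, Nrp1, Il10, Itgae, Entpd1, Capg and Izumo1r, taken by symbol from the 54532 gene rows of the deposited table, with 1 row per symbol. All 10 were among the 15685 genes with enough counts to test. The cells were whole CD4 T cells from spleen and lymph nodes of C57BL/6 mice, kept for 48 h on coated antibodies to CD3 and CD28 without added cytokines. Controls carried the genotype iCD4-PRMT5fl/fl (controls 1, 2 and 4) and knockouts the genotype iCD4-PRMT5delta/delta (knockouts 1, 4 and 5), so there were 3 biological replicates of each genotype. The title of knockout 4 ends in R2, which the labels do not explain. What iCD4 stands for, what drives the deletion, the age of the mice and the number of mice per library are not given in the sources used here.

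Tregs develop in the thymus or arise from naive CD4 T cells in tissues, and the transcription factor FOXP3 holds their programme in place. Helios and Eos, encoded by Ikzf2 and Ikzf4, are zinc finger proteins of the Ikaros family, and Eos acts as a corepressor partner of FOXP3. Tregs act through cell-surface proteins, through enzymes that turn extracellular ATP towards adenosine, and through cytokines such as IL-10 and TGF-beta. Most of these genes are not exclusive to Tregs: activated effector T cells can make IL-10, and Capg is high in macrophages. In bulk RNA a lower level can come from fewer cells of a type or from less RNA per cell, and these cannot be told apart here.

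For 5 of the 10 genes RefSeq promoter windows of GRCm38.p6 were at hand, each running from 250 bases before to 50 bases after a transcription start. Foxp3, Nrp1 and Entpd1 are shown because they were lower after activation in both genotypes, as described further on. Foxp3 and Entpd1 have a pair of windows each, and the one with more matches to the motifs searched is printed. Capitals mark matches on either strand to GGAAA (the core that NFAT proteins bind), TGTGGT (a RUNX motif) and TATAAA (the TATA box). The Foxp3 window lies at chrX:7579426-7579725, that of Nrp1 at chr8:128358823-128359122 and that of Entpd1 at chr19:40659520-40659819, all on the plus strand and printed 5′ to 3′.
Foxp3: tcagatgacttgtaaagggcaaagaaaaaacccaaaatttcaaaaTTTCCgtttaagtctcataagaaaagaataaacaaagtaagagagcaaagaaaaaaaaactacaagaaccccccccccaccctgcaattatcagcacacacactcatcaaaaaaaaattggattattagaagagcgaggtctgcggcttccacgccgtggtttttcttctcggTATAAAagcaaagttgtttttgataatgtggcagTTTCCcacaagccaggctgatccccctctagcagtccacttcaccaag
Nrp1: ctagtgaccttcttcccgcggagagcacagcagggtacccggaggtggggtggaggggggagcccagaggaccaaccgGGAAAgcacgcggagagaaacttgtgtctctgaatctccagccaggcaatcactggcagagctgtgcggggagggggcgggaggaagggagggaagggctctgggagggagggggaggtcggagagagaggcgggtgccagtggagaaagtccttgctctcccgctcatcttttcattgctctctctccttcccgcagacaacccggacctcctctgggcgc
Entpd1: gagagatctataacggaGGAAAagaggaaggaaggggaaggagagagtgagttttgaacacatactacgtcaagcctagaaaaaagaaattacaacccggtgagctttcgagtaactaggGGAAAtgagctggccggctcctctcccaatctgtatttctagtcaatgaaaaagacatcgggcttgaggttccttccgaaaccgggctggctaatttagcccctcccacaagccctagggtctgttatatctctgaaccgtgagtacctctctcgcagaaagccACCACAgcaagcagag
The Foxp3 window held 2 matches to GGAAA and 1 to TATAAA. The Nrp1 window held 1 match to GGAAA, and the Entpd1 window 2 to GGAAA and 1 to TGTGGT. The motifs for AP-1 (TGANTCA) and STAT proteins (TTCNNNGAA) had no match in these 3 windows. No match overlapped another in them. The Foxp3 window that is not printed, at chrX:7580233-7580532, held 1 match to GGAAA and 1 to TTCNNNGAA, which overlapped. The Entpd1 window that is not printed held 0 matches to each motif. Among all 32851 mouse promoter windows of this length, GGAAA occurred in 61.3%, TGTGGT in 16.8%, TATAAA in 13.6%, TTCNNNGAA in 8.30% and TGANTCA in 7.81%, so most of these matches are common and describe the letters alone.

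The libraries held between 29623513 and 39832588 gene counts, and levels are given as CPM (counts scaled to the library total) on library sizes scaled by TMM (trimmed mean of M values). The column names carry a tag that takes one of 2 values. It is called a batch here only as a name: batch A holds controls 1 and 2 and knockout 1, and batch B holds control 4 and knockouts 4 and 5. The labels and headers do not say what the tag marks, and it is not balanced over the genotypes. Prmt5, the deleted gene, encodes an arginine methyltransferase and separated the genotypes, with means of 37.4 ± 3.50 CPM in knockouts and 121.5 ± 20.2 CPM in controls (SD, n = 3 each) and no overlap. Its counts cover the whole gene and do not resolve the deleted part. The CD4 T cell markers summed to between 1289.0 and 1831.3 CPM in all 6 libraries. The summed markers of neutrophils stayed under 1 CPM, and those of erythroid cells too.

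Levels of the genes differed widely in the activated controls. Per kilobase of the gene length given in the table, Izumo1r was highest at 82.4 ± 12.4 CPM per kb (SD, n = 3), and Capg was next at 44.9 ± 14.6. The cytokine gene Il10 followed at 6.66 ± 3.48 CPM per kb, with Ikzf4 at 5.76 ± 0.772 and Ikzf2 at 5.18 ± 1.31. The ranges of Il10 and Ikzf4 overlapped, as did those of Ikzf4 and Ikzf2. Lrrc32, at 2.55 ± 1.54 CPM per kb, and Nrp1, at 2.5 ± 1.74, could not be ordered beyond their spread. Nrp1 overlapped Foxp3 at 1.21 ± 0.475 CPM per kb, and Foxp3 overlapped Entpd1 at 0.895 ± 0.613. Itgae was lowest, at 0.279 ± 0.144 CPM per kb, below the range of Entpd1. Ranges were apart between Izumo1r and Capg, between Capg and Il10, and between Ikzf2 and Lrrc32.

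Levels by library are given in the order controls 1, 2 and 4, then knockouts 1, 4 and 5. No gene of the 10 had knockouts that all lay on one side of all controls. Among all genes tested, 18.0% had knockouts and controls that did not overlap. With genotype as the only term, edgeR's quasi-likelihood test called 0 of the 10 and 0 of all genes tested (0.0%), with 0 and 1780 at an unadjusted p under 0.05. Prmt5 itself was not called in that fit (-1.70, SE 0.17, edgeR adjusted p = 0.109), so 0 calls there do not show a lack of difference. DESeq2 called 442 genes in the same design. With the batch as a second term edgeR called 1020 genes, 6.5% of those tested, and still 0 of the 10. Prmt5 was among the genes called (-1.58, edgeR adjusted p = 0.00312). Of the 10 log2 fold changes, knockout over control, 6 were positive on genotype alone, with a median of 0.43 against 0.01 over all genes. In the fit with both terms 8 were positive, with a median of 0.34 against 0.02 over all genes, and 2 genes had an unadjusted p under 0.05, Foxp3 and Entpd1, as had 4561 of the 15685 genes tested.

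**Figure D1:**
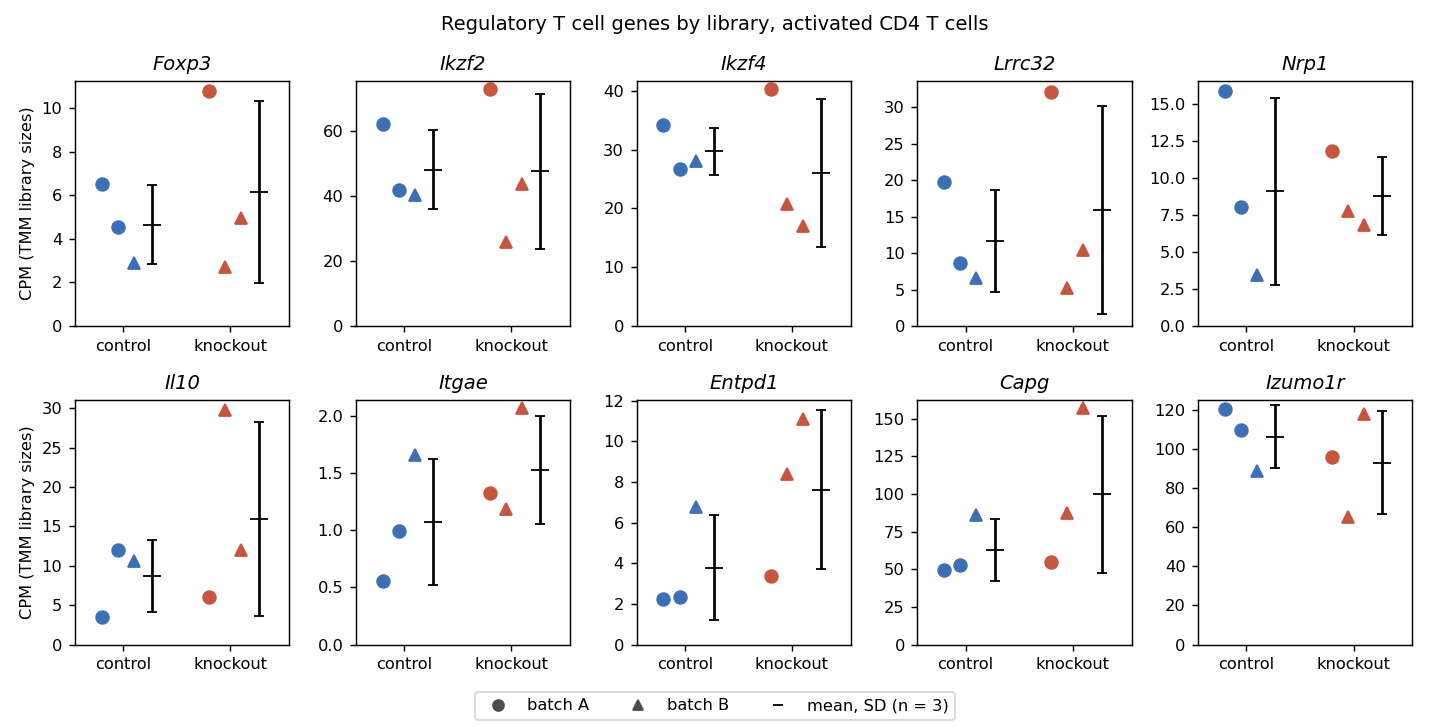
Level of each regulatory T cell gene in each of the 6 activated libraries, in CPM on a linear axis from 0. Points are libraries (circles batch A, triangles batch B), and the bars beside them give the mean and SD of 3 libraries. The genotypes overlap in every panel, and knockout 1 is the highest library for Foxp3, Ikzf2, Ikzf4 and Lrrc32.

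Foxp3 (ENSMUSG00000039521.12, chromosome X, positions 7573644 to 7595245 of GRCm38, plus strand) encodes the lineage factor of Tregs, and its level was 6.51, 4.54 and 2.88 CPM in the controls against 10.8, 2.69 and 4.94 CPM in the knockouts. Behind these levels were 198, 150 and 111 reads in controls and 341, 93 and 155 in knockouts. Knockout 1 was the highest library and knockout 4 the lowest, so the knockouts spanned the controls, with means of 6.15 ± 4.19 and 4.64 ± 1.82 CPM (SD, n = 3). The log2 fold change was 0.41 (SE 0.53, edgeR adjusted p = 0.856) on genotype alone. After adding the batch it was 0.70 (SE 0.28, 95% interval 0.04 to 1.36, edgeR adjusted p = 0.152). Knockout 1 exceeded the mean of the batch A controls by 0.99 on the log2 scale. The mean of the batch B knockouts exceeded control 4 by 0.34, with knockout 5 above control 4 and knockout 4 below it. The sign on genotype alone turned without knockout 1 (-0.30) and under scaling to the ERCC spike-in RNAs (-0.25). The batch-term call was gained without knockout 4 (0.88, edgeR adjusted p = 0.0419) and without a filter on low counts (0.67, adjusted p = 0.0342), and the value was smaller, 0.38, without knockout 1 (adjusted p = 0.659). Exons of Foxp3 overlap Flicr, a noncoding RNA annotated on the same strand, and Ppp1r3f, Ccdc22 and Gm36995 on the opposite one. Flicr stayed between 1.07 and 1.66 CPM. Means over the 6 libraries were 3.77 CPM for Ppp1r3f, 1.55 for Ccdc22 and 0.102 for Gm36995. Neither labels nor headers say how the authors' counting treated overlaps.

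Ikzf2 (ENSMUSG00000025997.13, chromosome 1, 69531214 to 69687245, minus strand), which encodes Helios, had 62.0, 41.9 and 40.2 CPM in the controls and 72.9, 25.9 and 43.8 CPM in the knockouts. As for Foxp3, knockout 1 was highest and knockout 4 lowest. Group means were nearly equal, 48.0 ± 12.2 and 47.5 ± 23.7 CPM (SD, n = 3), and the batch-term log2 fold change was 0.14 (SE 0.25, 95% interval -0.43 to 0.72, edgeR adjusted p = 0.738). Ikzf4 (ENSMUSG00000002578.17, chromosome 10, 128630843 to 128645991, minus strand), which encodes Eos, had 34.2, 26.7 and 28.1 CPM in the controls and 40.3, 20.7 and 17.0 CPM in the knockouts. Its highest library was again knockout 1, while the batch B knockouts lay below every control. The knockout mean was 26.0 ± 12.5 and the control mean 29.6 ± 3.98 CPM (SD, n = 3), with a batch-term log2 fold change of -0.08 (SE 0.22, edgeR adjusted p = 0.835). For Ikzf4 the genotypes differed by 0.42 within batch A and by -0.59 within batch B, and for Ikzf2 by 0.52 and -0.25, so both genes had opposite signs in the batches.

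Lrrc32 (ENSMUSG00000090958.2, chromosome 7, 98489283 to 98502181, plus strand) encodes GARP, which holds latent TGF-beta on the Treg surface. The controls had 19.7, 8.62 and 6.64 CPM and the knockouts 32.1, 5.21 and 10.4 CPM. The highest and the lowest library were knockouts, 1 and 4, which differed by 6.17-fold. Fitted with the batch, the log2 fold change was 0.72 (SE 0.38, 95% interval -0.16 to 1.61, edgeR adjusted p = 0.249), and it passed without a filter on low counts (0.70, adjusted p = 0.00214). Leaving out single libraries moved it between 0.21 without knockout 1 (adjusted p = 0.869) and 1.17 without control 4 (adjusted p = 0.326), with 0.42 without control 2 (adjusted p = 0.46). On genotype alone it was 0.45 (SE 0.69), and turned to -0.60 without knockout 1 and to -0.16 under ERCC scaling.

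Nrp1 (ENSMUSG00000025810.9, chromosome 8, 128358604 to 128503363, plus strand) encodes neuropilin-1, a coreceptor for semaphorins and VEGF that is found on Tregs of thymic origin. The 3 controls had 15.9, 8.02 and 3.42 CPM, and the 3 knockouts 11.8, 7.76 and 6.85 CPM. All 3 libraries of batch A lay above all 3 of batch B, while the genotypes overlapped, with means of 9.13 ± 6.34 and 8.79 ± 2.61 CPM (SD, n = 3). Knockouts differed from controls by 0.06 within batch A and by 1.09 within batch B, where the single control 4 was the lowest library of all. The batch-term log2 fold change of 0.51 (SE 0.35, edgeR adjusted p = 0.367) went to -0.03 without control 4.

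Entpd1 (ENSMUSG00000048120.16, chromosome 19, 40612366 to 40741602, plus strand) encodes CD39, the enzyme that begins the breakdown of extracellular ATP. The controls had 2.24, 2.33 and 6.77 CPM of it and the knockouts 3.39, 8.40 and 11.1 CPM. Batch B was above batch A in every library, and inside each batch the knockouts were above the controls. Means were 3.78 ± 2.59 CPM in controls and 7.64 ± 3.93 CPM in knockouts (SD, n = 3), and the log2 fold change was 1.01 on genotype alone (SE 0.57, edgeR adjusted p = 0.569). With the batch term it was 0.55 (SE 0.19, 95% interval 0.12 to 0.98, edgeR adjusted p = 0.106), and the differences inside the batches were 0.57 and 0.52. Entpd1 kept a positive sign when each library was left out in turn, in both fits, and under ERCC scaling, where the batch-term value was 0.09. No alternative brought it past the threshold, and the lowest adjusted p without a library was 0.0608.

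Itgae (ENSMUSG00000005947.11, chromosome 11, 73090583 to 73147446, plus strand) encodes CD103, the integrin chain that binds E-cadherin and retains T cells in epithelia. It rested on few reads, 17, 33 and 64 in controls and 42, 41 and 65 in knockouts, or 0.559 to 1.66 and 1.19 to 2.07 CPM. Control 1 was lowest and knockout 5 highest, and the log2 fold change of 0.34 with the batch term (SE 0.36, edgeR adjusted p = 0.568) turned to -0.14 under ERCC scaling. Haspin lies inside Itgae on the opposite strand at a mean of 24.0 CPM, without exon overlap, and neither labels nor headers say whether counting used strand. Izumo1r (ENSMUSG00000031933.17, chromosome 9, 14885814 to 14903949, minus strand) encodes folate receptor 4, which is high on mouse Tregs and anergic T cells. Controls showed 120.5, 109.6 and 88.9 CPM and knockouts 95.7, 65.4 and 117.8 CPM. It varied least of the 10 genes, by 1.84-fold between the highest and the lowest library, with means of 106.3 ± 16.0 and 92.9 ± 26.3 CPM (SD, n = 3). The batch-term log2 fold change was -0.11 (SE 0.21, edgeR adjusted p = 0.763).

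Il10 (ENSMUSG00000016529.5, chromosome 1, 131019845 to 131024974, plus strand) encodes the anti-inflammatory cytokine IL-10. Control libraries had 3.52, 12 and 10.6 CPM and knockout libraries 6.05, 29.8 and 12 CPM. Knockout 4 alone exceeded all controls, and Il10 varied most of the 10 genes, by 8.48-fold from control 1 to knockout 4. Means were 8.72 ± 4.56 CPM in controls and 16.0 ± 12.4 CPM in knockouts (SD, n = 3), and the log2 fold change was 0.87 (SE 0.64, edgeR adjusted p = 0.683) on genotype alone. Without knockout 4 it was 0.04. With the batch term it was 0.33 (SE 0.59, 95% interval -1.03 to 1.69, edgeR adjusted p = 0.745), with -0.10 inside batch A and 0.83 inside batch B. Capg (ENSMUSG00000056737.14, chromosome 6, 72544391 to 72562983, plus strand) encodes an actin-capping protein of the gelsolin family. Control libraries had 49.3, 52.9 and 86.3 CPM and knockout libraries 54.6, 87.5 and 157.1 CPM, with every batch B library above every batch A library. Knockout 5 was highest, and the batch-term log2 fold change was 0.30 (SE 0.22, edgeR adjusted p = 0.397), falling to 0.06 without knockout 5 and to -0.19 under ERCC scaling. ERCC scaling moved the median of all genes from 0.02 to -0.44 with the batch term and from 0.01 to -0.59 on genotype alone, so all values under it are set against that shift.

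The batches parted several of these genes. With genotype in the model, Foxp3 was lower in batch B by a log2 difference of -1.23 (SE 0.29, edgeR adjusted p = 0.0157), Lrrc32 by -1.58 (SE 0.39, edgeR adjusted p = 0.0189) and Nrp1 by -1.23 (SE 0.35, edgeR adjusted p = 0.0318). Entpd1 was higher in batch B by 1.55 (SE 0.19, edgeR adjusted p = 0.00225) and Capg by 0.96 (SE 0.22, edgeR adjusted p = 0.0152). So 2 of the 10 genes were higher and 3 lower, against 15.7% higher and 16.5% lower among all genes tested. Ikzf2 (-0.72, edgeR adjusted p = 0.0593) and Ikzf4 (-0.60, adjusted p = 0.0701) had the same sign as Foxp3 and did not pass. Il10 (1.11), Itgae (0.68) and Izumo1r (-0.22) did not pass either with all libraries. For Nrp1, Entpd1 and Capg the libraries of batch A and batch B did not overlap, against 38.5% of all genes tested. Entpd1 was called in 6 of 6 fits that each left out 1 library, with adjusted p-values up to 0.0376. The calls of Foxp3 and Capg ended without control 4 (-1.50 and 1.17, adjusted p = 0.0605 and 0.0727) and without knockout 1 (-0.93 and 0.77, adjusted p = 0.21 and 0.151). The call of Nrp1 ended without the same libraries, at -0.68 (adjusted p = 0.274) and -1.79 (adjusted p = 0.0615). The call of Lrrc32 ended without control 1 (-1.39, adjusted p = 0.0555), control 4 (-2.04, adjusted p = 0.0615) and knockout 1 (-1.08, adjusted p = 0.268). Ikzf2 passed without control 2 (-0.89, adjusted p = 0.0348) and without knockout 5 (-0.83, adjusted p = 0.0412), and Ikzf4 without control 2 (-0.76, adjusted p = 0.0449) and without control 4 (-1.09, adjusted p = 0.0367). Il10 passed without control 2 (1.70, adjusted p = 0.0274), and Izumo1r without knockout 5 (-0.44, adjusted p = 0.0123).

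**Figure D2:**
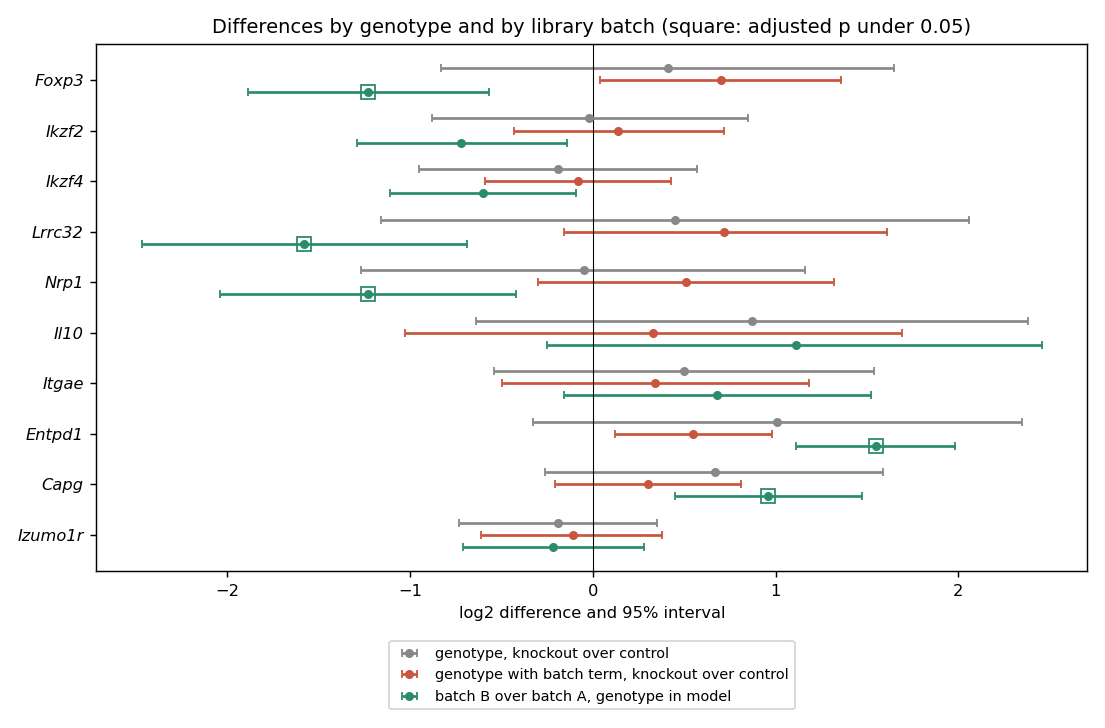
Log2 differences with 95% intervals (horizontal axis) for the 10 genes (vertical axis) by edgeR: knockout over control on genotype alone in grey, knockout over control with the batch term in red, and batch B over batch A in green. Squares mark an adjusted p under 0.05, which only batch differences reached, those of Foxp3, Lrrc32, Nrp1, Entpd1 and Capg.

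Markers of other cell types moved with some of these levels. Knockout 1, the highest library for Foxp3, Ikzf2, Ikzf4 and Lrrc32, was also highest for the summed NK cell, B cell, dendritic cell and platelet lists and lowest for the CD4 T cell list, at 1289.0 CPM. Knockout 5 was below knockout 1 for each of these 4 genes. Within batch B it was the highest library for Foxp3, Ikzf2 and Lrrc32, and for Ikzf4 it was the lowest. It was above every control for the B cell (81.2 CPM) and platelet (27.2 CPM) lists. Its dendritic cell sum of 35.5 CPM was close to the 35.6 CPM of knockout 1. The NK cell list of 6 genes summed to 17.7 to 60.0 CPM in controls and 17.3 to 67.9 CPM in knockouts. It was almost all Eomes, at 14.7 to 65.1 CPM over the libraries, so it describes that gene more than NK cells. The 10 B cell genes, led by Ighm, summed to 36.4 to 77.9 and 36.4 to 99.4 CPM, and the 5 platelet genes, led by Itga2b, to 9.85 to 16.3 and 11 to 36.1 CPM. The 9 dendritic cell genes, led by Ccl22, summed to 13.1 to 18.1 CPM in controls and 19.4 to 35.6 CPM in knockouts, without overlap. Knockout 5, the highest library for Entpd1, Itgae and Capg, was also highest for the CD4 T cell list, at 1831.3 CPM. It was highest too for the 8 macrophage and monocyte genes, led by Lyz2, which summed to 4.08 to 7.53 and 6.40 to 22.3 CPM. The same held for the pair of CD8 genes, led by Cd8b1, at 7.08 to 15.4 and 9.0 to 19.6 CPM. The plasma cell list was almost all Xbp1, which activated T cells also express. It summed to 285.4 to 361.5 CPM in controls and 235.5 to 274.0 CPM in knockouts, also without overlap. Of single genes tested, 18.0% had genotypes that did not overlap. The stroma and endothelium list was almost all Pecam1, at 58.7 to 80.9 and 61.1 to 77.7 CPM. Cd209a, Camp and Gp1bb stayed under 0.1 CPM in every library, as did Cdh5, Col3a1 and Lyve1 and 4 of 5 erythroid genes. The part of these markers in the levels of the 10 genes was not tested.

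**Figure D3:**
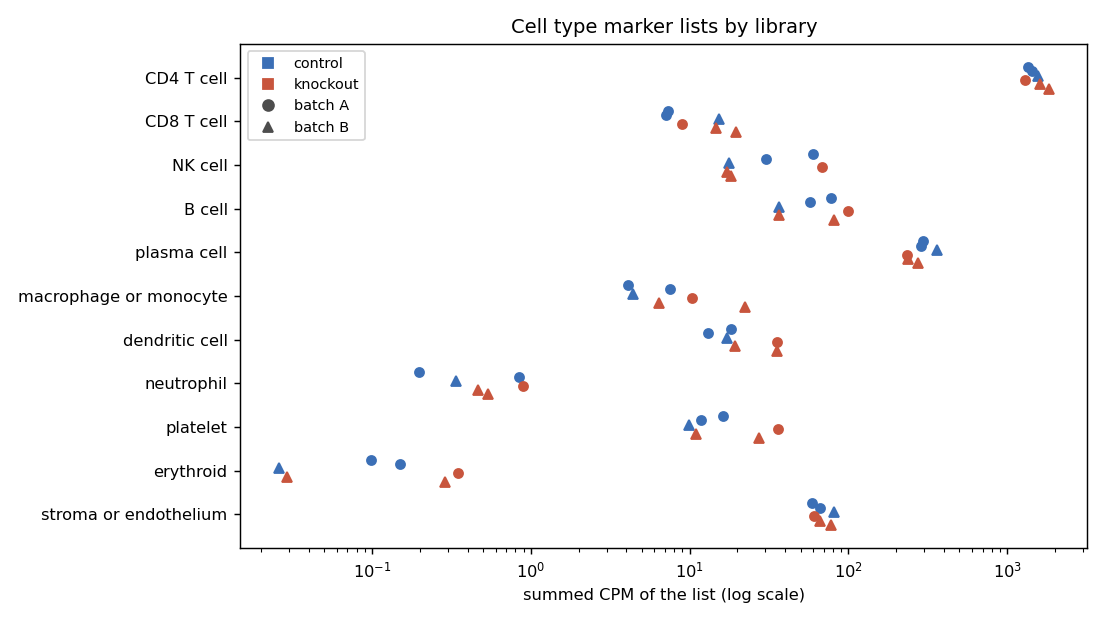
Summed CPM of each cell type marker list (log axis) in the 6 libraries, control in blue and knockout in red, circles for batch A and triangles for batch B. The CD4 T cell list sums to 1289.0 CPM or more in every library. The dendritic cell list has every knockout above every control, and the plasma cell list has every knockout below every control.

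The unstimulated cells entered here through the comparisons in the authors' deposited table, and their libraries were not analysed. In that table, 5 genes were lower in activated than in resting controls: Itgae, Entpd1, Foxp3, Ikzf2 and Nrp1. Another 4 were higher, Il10, Ikzf4, Capg and Izumo1r, and Lrrc32 did not pass. The authors' deposited table has 27.7% of all genes tested higher and 42.8% lower in activated controls, and in knockouts 25.8% were higher and 35.4% lower. In knockouts the same 5 genes were lower, 3 were higher (Il10, Ikzf4 and Capg) and 2 did not pass. The median log2 change of the 10 genes was -0.81 in controls and -0.84 in knockouts, against -0.32 and -0.24 over all genes of the authors' deposited table.

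Foxp3 had a log2 change of -2.63 on activation in controls (adjusted p = 1.35e-10) and -2.14 in knockouts (adjusted p = 1.79e-07) in the authors' deposited table, 6.21-fold and 4.4-fold lower. Ikzf2 was lower by similar amounts in the authors' deposited table, at -2.10 in controls (adjusted p = 1.85e-11) and -2.03 in knockouts (adjusted p = 9.8e-11). Its relative Ikzf4 went the other way in the authors' deposited table, at 1.39 (adjusted p = 1.7e-06) and 1.40 (adjusted p = 1.43e-06). So the Helios and Eos genes had opposite signs on activation in both genotypes.

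Itgae, the integrin gene, was lowest relative to rest in the authors' deposited table, at -3.13 in controls (adjusted p = 2.9e-21) and -2.92 in knockouts (adjusted p = 1.07e-19). For Entpd1 the authors' deposited table gives -2.64 in controls (adjusted p = 1.3e-08) and -1.89 in knockouts (adjusted p = 4.06e-05), and for Nrp1 -1.96 (adjusted p = 4.61e-06) and -2.08 (adjusted p = 1.5e-06). Lrrc32 did not pass in either genotype in the authors' deposited table, with 0.34 (adjusted p = 0.476) and 0.68 (adjusted p = 0.168). Surface genes thus did not share one direction: Izumo1r had 0.44 in controls (adjusted p = 0.0477) and 0.22 in knockouts (adjusted p = 0.355) in the authors' deposited table.

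Il10 had the largest increase of the 10 genes in the authors' deposited table, with a log2 change of 2.40 in controls (adjusted p = 0.00019) and 3.84 in knockouts (adjusted p = 1.4e-08), or 5.27-fold and 14.3-fold. Capg had 0.89 (adjusted p = 0.0078) and 1.25 (adjusted p = 0.000297) in the authors' deposited table. Whether the change on activation differed between genotypes was not tested, for Il10 or any other gene. Between resting genotypes the authors' deposited table lists a log2 value of 0.00 and an adjusted p of 1.0 for each of the 10 genes, and calls 3 genes in all (0.0151%). Between activated genotypes the authors' deposited table calls 954 genes (6.1%) and 0 of the 10. Its value closest to the threshold among them is that of Entpd1, 0.15 knockout over control (adjusted p = 0.238), in the authors' deposited table. For some genes these values are far smaller than those fitted here on genotype alone, knockout over control: 0.05 against 0.87 for Il10 and 0.15 against 1.01 for Entpd1. For others the gap was small or absent, with -0.10 against -0.19 for Izumo1r and -0.02 in both for Ikzf2. For Prmt5 they were alike, at -1.71 and -1.70. Nor do the deposited genotype values of Il10, 0.00 and 0.05, match its activation values of 2.40 and 3.84. How the deposited values were computed is not given, so 0.00 is not read as a measured lack of difference. The activation comparisons and the activated genotype comparison share libraries.

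**Figure D4:**
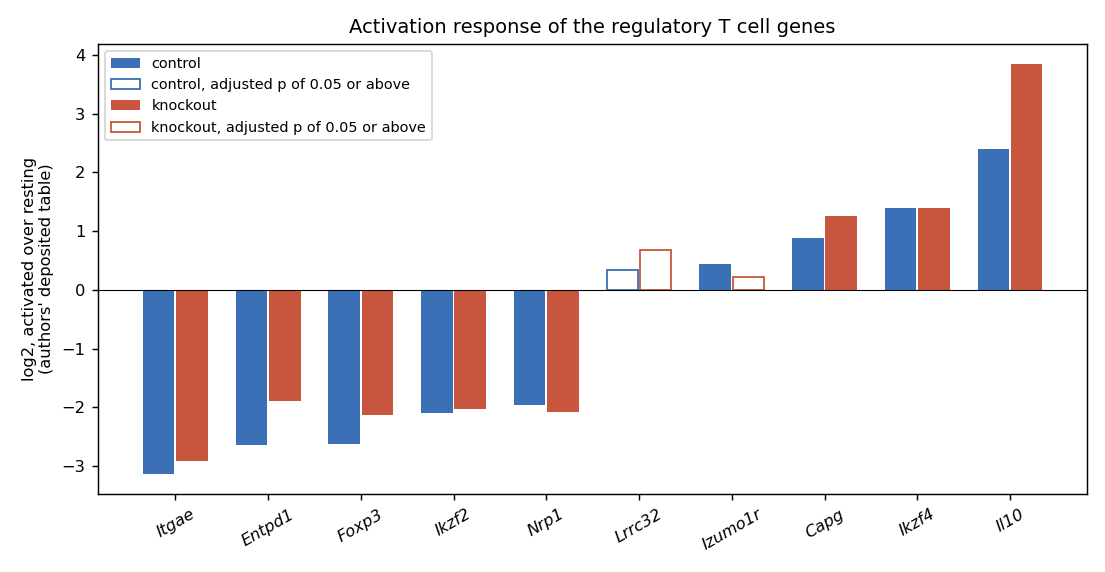
Log2 change from resting to activated cells as given in the authors' deposited table, for each of the 10 genes in controls (blue) and knockouts (red). Filled bars have an adjusted p under 0.05. Itgae, Entpd1, Foxp3, Ikzf2 and Nrp1 are below 0 in both genotypes, and Capg, Ikzf4 and Il10 above 0 in both.

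Genes were ranked by the likeness of their library profiles to that of Foxp3. The likeness was the root mean square difference of log2(CPM + 1), centred over the 6 libraries, among 3456 genes with a mean of at least 5 CPM and an SD of at least 0.5 times that of Foxp3. Bcl9l was closest (0.0858), then Pacsin1 (0.108) and Cux1 (0.111). Bcl9l had 10.1, 6.41 and 4.33 CPM in the controls and 16.6, 4.92 and 7.42 CPM in the knockouts, so it shared with Foxp3 the high knockout 1. Of the other Treg genes, Ikzf2 ranked 79th (0.232) and Lrrc32 313th (0.298) of the 3456, while Entpd1 and Il10 ranked 3266th and 3372nd. The measure depends on the size of a gene's variation too. With so many genes and 6 libraries, some close profiles are likely for any gene, so the ranks describe profiles alone. For Il10, Inhba, which encodes a chain of activin, was closest of 1433 genes (0.305), then the semaphorin gene Sema4f (0.318) and the leukotriene receptor gene Cysltr1 (0.323). Inhba had 7.07, 16.7 and 17.3 CPM in the controls and 5.55, 43.4 and 20.2 CPM in the knockouts, highest like Il10 in knockout 4. Entpd1 was the closest of the Treg genes ranked for Il10, at 174th. All these profiles come from the same 6 libraries and share their batches and depths.

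Lists of genes around the 10 give the wider pathway. On genotype alone edgeR called 0 genes in each of 6 lists. In the fit with both terms, 2 of 29 FOXP3 partners and regulators rose and 1 fell, with a list median of 0.10 against 0.02 over all genes. Among all genes tested 2.87% rose and 3.63% fell in that fit, and the counts of each list are read against these shares. Gata3, a Th2 factor that also binds FOXP3, had 85.5, 74.3 and 47.0 CPM in the controls and 116.0, 59.9 and 80.7 CPM in the knockouts, and rose by 0.56 on the log2 scale (edgeR adjusted p = 0.0477). Bach2, a repressor that favours Treg formation, had 113.4, 87.1 and 47.6 CPM in the controls and 165.1, 61.9 and 84.0 CPM in the knockouts, and rose by 0.67 (edgeR adjusted p = 0.0441). The groups overlapped for both, but inside each batch the knockouts were higher. Stub1, a ubiquitin ligase that acts on FOXP3, was lower in every knockout, at 25.3 ± 1.93 against 36.5 ± 1.68 CPM (SD, n = 3), and fell by 0.49 (edgeR adjusted p = 0.0428). Of the same 29 genes, 18 were lower and 1 higher in batch B over batch A, with a median of -0.52 against 0.02 over all genes, where 16.5% were lower and 15.7% higher.

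Among 21 other Treg surface receptors 0 passed with the batch term, and those with the smallest p were Tnfrsf9, which encodes 4-1BB (-0.65, edgeR adjusted p = 0.0576), and Ctla4, which encodes the inhibitory receptor CTLA-4 (-0.90, edgeR adjusted p = 0.069). Their levels were 624.9 ± 403.1 and 499.5 ± 285.9 CPM in controls and 476.0 ± 168.1 and 366.5 ± 225.8 CPM in knockouts (SD, n = 3). Of 14 Treg effector molecules 1 rose (2.87% over all genes), Havcr2, the gene of the inhibitory receptor TIM-3. It had 1.45, 1.6 and 2.36 CPM in the controls and 3.84, 15 and 9.39 CPM in the knockouts, without overlap, and rose by 1.87 (SE 0.32, edgeR adjusted p = 0.0264). The median was 0.04 for the receptors and 0.48 for the effector molecules, against 0.02 over all genes. TIM-3 is also a receptor of exhausted and Th1 cells and of myeloid cells.

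Of 19 genes for IL-10 transcription and signalling 1 fell with the batch term and 0 rose, against 3.63% and 2.87% over all genes (median 0.06). It was Nfil3, a basic leucine zipper factor that acts on Il10 in T cells, with means of 201.8 ± 92.8 CPM for controls and 143.5 ± 71.1 CPM for knockouts (SD, n = 3), which fell by 0.91 (edgeR adjusted p = 0.0434). Of 10 genes of the Ikaros family and its corepressors 1 rose, against 2.87% over all genes (median 0.04). It was the corepressor gene Ctbp2, which went from 0.803 ± 0.247 to 2.07 ± 0.396 CPM (SD, n = 3; log2 fold change 1.59, edgeR adjusted p = 0.0263). Of 15 genes of TGF-beta receptors and signalling, 2 rose and 1 fell, against 2.87% and 3.63% over all genes (median 0.11). Smad7, an inhibitor of TGF-beta signalling, rose by 0.64 (edgeR adjusted p = 0.0366), and so did Ski, another inhibitor, by 0.49 (edgeR adjusted p = 0.0445). Smad7 had 17.4 ± 2.84 CPM in controls and 24.4 ± 6.16 CPM in knockouts (SD, n = 3). For Ski the means were nearly equal, 56.3 ± 27.7 and 57.1 ± 34.1 CPM, and on genotype alone it had 0.02 (edgeR adjusted p = 0.994). The genotypes overlapped for both. Tgfb3, a TGF-beta ligand gene, fell by 1.59 (edgeR adjusted p = 0.0446), with control 4 far above the other controls at 24.1 CPM against 3.78 and 5.08 CPM. All 9 calls in these lists were made by DESeq2 too, but in edgeR fits without 1 library they held only without knockout 4 or without knockout 5 (Ski without knockout 4 alone). Each lost the call without control 1, 2 or 4 or knockout 1, fits that called between 0 and 149 of all genes, and each kept its sign, with the widest ranges for Havcr2 (1.32 to 2.35) and Tgfb3 (-2.08 to -1.01). Under ERCC scaling Tgfb3 alone passed (-1.98, adjusted p = 0.000273).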

How the data were processed

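Per the labels' protocols, libraries were TruSeq Stranded after removal of ribosomal RNA. The authors deposited 1 table with raw read counts per gene for the 6 activated libraries, and log2 fold changes and adjusted p-values of the authors' own comparisons. Per the submitters' processing notes the tools were STAR, featureCounts, DESeq and DESeq2 and the build was GRCm38.p3; their versions and roles are not given there. The strand setting and the adjustment method of the deposited p-values are not given in the sources used here. In the deposited log2 values the group named first is over the second, which was checked with Prmt5; signs are turned here where needed. A further 12 columns of per-sample values, which include the unstimulated cells, matched no sample and were not used.

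Counts of 54532 genes (92 ERCC spike-in rows kept apart) were analysed in edgeR 4.0.16: filterByExpr kept 15685 genes (10 reads as the minimum count and 15 as the minimum total), which were scaled by TMM and fitted with glmQLFit. The glmQLFTest was two-sided, with Benjamini-Hochberg adjustment over all genes and a threshold of 0.05. The main model holds genotype alone; a second adds the batch tag of the column names. The SE of a log2 fold change is its size over the root of the F statistic. Coordinates are those of GENCODE release M21 (GRCm38): 9 of 10 identifiers matched exactly and 10 without the version. Alternatives were DESeq2 1.42.0, no filter, ERCC scaling, a replicate block, leaving out each library, and differences inside each batch. R 4.3.3, Python 3.11.15, pandas 2.3.3, numpy 2.4.6 and matplotlib 3.10.9 were used, and the edgeR script was tested on simulated data. P-values measure the spread between these libraries.

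The genes and lists were chosen with earlier results of these data known. Named besides them are Prmt5, list members past the threshold with the batch term (up to 4 per list, or the 2 with the smallest p where none passed), the most abundant gene of each marker list, and for Foxp3 and Il10 the 3 genes of at least 5 CPM with the most similar profile.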

Additional observations from a re-analysis of the deposited data

How the results depend on the processing

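On genotype alone edgeR called 0 genes in the full fit and in each of the 6 fits without 1 library, against 442 with DESeq2, 720 without a filter, 273 under ERCC scaling and 768 with the replicate block. With the batch term the count of 1020 became 2378 with DESeq2, 2944 without a filter and 393 under ERCC scaling, and ran from 0 to 2056 without single libraries: 0 without control 4 or knockout 1, 3 without control 2, 149 without control 1, 993 without knockout 5 and 2056 without knockout 4. The batch B over batch A count of 5045 ran from 1284 (without knockout 1) to 5202 without single libraries, with 1653 without control 4 and 2564 without control 1. Signs turned under ERCC scaling for Foxp3 (-0.25), Lrrc32 (-0.16) and Itgae (-0.05) on genotype alone, and for Ikzf2 (-0.32), Il10 (-0.18), Itgae (-0.14) and Capg (-0.19) with the batch term. Without single libraries the log2 fold change on genotype alone ran from -0.30 to 0.76 for Foxp3, -0.48 to 0.27 for Ikzf2, -0.67 to 0.04 for Ikzf4, -0.60 to 1.06 for Lrrc32 and -0.45 to 0.62 for Nrp1. With the batch term it ran from -0.23 to 0.48 for Ikzf2, -0.60 to 0.40 for Ikzf4, -0.03 to 1.07 for Nrp1, -0.37 to 0.96 for Il10, -0.05 to 0.76 for Itgae and -0.34 to 0.02 for Izumo1r. The replicate block turned Nrp1 on genotype to 0.34 and brought Il10 past the threshold (1.16, edgeR adjusted p = 0.00816). Only numbers 1 and 4 occur in both genotypes, and deviations of their libraries from the group means correlated at 0.704 and 0.51 over genes; the labels do not tie the numbers to a shared source, and the block changed no other call of the 10 genes. Of all 270 recomputed values, 9 lost and 10 gained a call; differences inside 1 batch have no test. The cause was not tested. Depth limits Itgae most, at 17 to 65 reads per library.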
